A study of Mus musculus with 6 samples.

Results

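Solute carriers are membrane proteins that move amino acids, sugars, ions, metals, vitamins and metabolites across the cell surface and the membranes of organelles, and 152 of their genes were examined in B lymphocytes from mouse spleen. The members were chosen by level: of the 281 genes in the table whose symbol has the form Slc, digits, a, digits, 157 had a mean of at least 3 TPM (transcript levels scaled to transcript length and to depth) over the 6 libraries. Slc6a19, Slc2a1, Slc40a1, Slc4a1 and Slc25a37 were left out by name, which gave 152 members of the 16511 genes in the table, and all 152 passed the filter on low counts. Slc7a2 with a mean of 3.20 TPM and Slc27a3 with 3.52 TPM lay just inside the limit, and Slc25a35 with 2.99 TPM and Slc1a3 with 2.61 TPM just outside. Levels are therefore a description. The limit uses no difference between the labelled groups, but the group of genes and the names left out were settled with earlier results known, and the 5 left out include Slc6a19 with a log2 fold change of -4.18, larger in size than that of any member.

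RNA came from 6 libraries, 3 labelled GPR40-WT (WT below) and 3 labelled GPR40-KO (KO below, written GPR40-BKO in the text on the design). GPR40 is the fatty acid receptor encoded by Ffar1. In both groups the B cells were enriched from spleen with magnetic beads that remove other cells. The sources used here give no age, strain or allele, and do not say whether each library came from its own mice. The p-values below thus reflect only how these libraries vary, part of which may be technical. Total depth was 14907080 to 15461425 estimated counts per library. Ffar1 goes against the labels: it was at 0 counts wherever the label was WT (3 libraries) and at 273, 392 and 304 counts where the label was KO, so each direction below follows the labels as deposited and would turn over if they were exchanged.

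Markers of B cells and of other spleen cells also moved with the labels. The pan-B markers summed to 12990, 18890 and 14280 TPM in the libraries labelled WT and 23350, 25330 and 21910 TPM in those labelled KO, and 8 of the 13 tested rose. With the replicate number as a block in the fit (the block below), 9 rose and 1 fell. Over all 12234 genes tested, 9.37% differed by test and 20.7% with the block, and DESeq2 called 855 higher and 1391 lower. The macrophage and monocyte markers summed to 8766, 3981 and 9565 against 2996, 1638 and 2328 TPM, and none was at 0 in any library. Of these 15 markers, 3 fell by test, 13 with the block and 8 by DESeq2. The neutrophil markers summed to 36920, 11290 and 3354 against 1098, 978 and 496 TPM, and all 14 were lower without overlap between groups. For comparison, 33.4% of all genes had groups without overlap in either direction, and 1949 of the 12234 were lower. Of the 14 markers, 2 fell by test, 7 with the block and 14 by DESeq2. Ly6g, a surface marker of neutrophils, was at 0 in the library labelled KO replicate 3 and otherwise above 0. Erythroid markers summed to 3559, 4166 and 42430 against 8031, 1796 and 7721 TPM, with 0 of 13 called (1 with an unadjusted p under 0.05, 1 called with the block and 1 by DESeq2). Markers of T and NK cells summed to 532, 132 and 85.1 against 120, 100 and 65.1 TPM, with 1 of 13 lower by test, 5 with the block and 7 by DESeq2. In such mixed samples, fewer cells of a type and less RNA per cell cannot be told apart, and the part of these shifts in the differences below was not tested.

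Carriers are grouped into families by sequence, and most families share a kind of substrate. Several, but not all, amino acid carriers of the Slc7 family work as light chains bound to a glycoprotein heavy chain, Slc3a2 or Slc3a1. B cells raise such carriers when they are activated and begin to grow. Slc25 carriers sit in the inner mitochondrial membrane, Slc30 and Slc39 carriers move zinc out of and into the cytosol, and several Slc15, Slc36, Slc38 and Slc66 members act at lysosomes, where B cells also sense nucleic acids and nutrients.

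The starts of 3 genes on which the results turn are given first, as the 120 bases before the start in RefSeq (GRCm38.p6), 5′ to 3′ on the strand of the gene. Slc44a2 is shown at both of its starts because its transcripts told them apart, and Slc12a7 because it was the called member with the largest difference. For Slc12a7, RefSeq holds the sequences before 2 starts, which end at 73763659 and 73763696, and only the second is given. Slc7a11 is shown because capitals mark 2 matches to TGATGNAA, an element bound by ATF4 with C/EBP proteins. These lie at 66 and 47 bases before the start (offsets of -66 and -47), the second on the opposite strand.
Slc44a2, upstream start, chr9:21320599-21320718, plus strand: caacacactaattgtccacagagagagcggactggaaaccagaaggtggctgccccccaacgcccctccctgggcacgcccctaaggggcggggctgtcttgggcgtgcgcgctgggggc
Slc44a2, downstream start, chr9:21337708-21337827, plus strand: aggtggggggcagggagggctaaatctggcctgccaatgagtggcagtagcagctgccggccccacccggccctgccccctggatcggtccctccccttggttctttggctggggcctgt
Slc12a7, chr13:73763577-73763696, plus strand: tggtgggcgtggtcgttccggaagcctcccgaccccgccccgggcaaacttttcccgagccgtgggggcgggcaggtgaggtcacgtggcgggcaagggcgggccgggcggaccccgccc
Slc7a11, chr3:50443614-50443733, minus strand: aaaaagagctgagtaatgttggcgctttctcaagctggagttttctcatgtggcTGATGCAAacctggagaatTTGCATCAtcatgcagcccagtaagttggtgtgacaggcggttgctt
Searched on both strands over 250 bases before to 50 bases after each start, TGATGNAA was found in 6 of the 114 members that have such a window (5.26%) and in 4.51% of all 27025 genes. The 6 are Slc1a4, Slc7a7, Slc7a11, Slc9a9, Slc49a4 and Slc50a1. TGCNCNC, a loose pattern that includes the core of the element bound by the zinc sensor Mtf1, was found in 61.4% of the members and 53.6% of all genes. It was found in 14 of the 18 carriers of zinc, iron, copper, magnesium and heme that have a window. Its matches are not all elements for Mtf1.

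By level, the mitochondrial carriers Slc25a5, which exchanges ADP for ATP, and Slc25a3, which takes up phosphate, stood highest with means of 412 and 406 TPM over the 6 libraries. Slc38a2, a sodium-coupled carrier of neutral amino acids, followed with 268 TPM, and Slc1a5, a glutamine carrier, with 198 TPM. Slc44a2 had a mean of 189 TPM, Slc3a2 159, the heme carrier Slc48a1 140, the sugar carrier Slc50a1 120, the zinc carrier Slc39a7 103, the nucleoside carrier Slc28a2 103 and the zinc carrier Slc30a5 103 TPM. In all, 12 members had a mean of at least 100 TPM, and the median over all members was 20.1 TPM. Among the 12 steps from each of them to the next lower member, only those from Slc25a3 to Slc38a2, from Slc38a2 to Slc1a5 and from Slc50a1 to Slc39a7 exceeded the pooled SD over libraries. Slc28a2 has a near copy in the table, Slc28a2b, so the split of reads between them is uncertain. The summed level of all 152 members was 5944, 5668 and 6117 TPM in the libraries labelled WT and 5629, 5355 and 5342 TPM in those labelled KO.

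Differences between the groups were tested with edgeR's quasi-likelihood test over all 12234 genes that passed the filter, and a gene is called where its Benjamini-Hochberg adjusted p was under 0.05. Of the 152 members, 15 were called (9.87%), against 9.37% of all genes tested, so their share lay near the background in this fit. Of these, 6 rose in the libraries labelled KO and 9 fell, where 4.55% of all genes rose and 4.81% fell. The median log2 fold change of the members was -0.09, beside 0.01 over all genes tested, with 62 members above 0 and 90 below. Groups did not overlap in 38.2% of the members, 17 higher and 41 lower in the libraries labelled KO. Of all 12234 genes, 33.4% had groups without overlap, 2140 higher and 1949 lower. With the block, 8 members rose and 40 fell (31.6% called). Of all 12234 genes, 974 rose and 1561 fell with the block (20.7% called). All 15 members called without the block were called with it. The number of called members was 5, 4 and 7 without the libraries labelled KO replicates 1, 2 and 3, and 8, 38 and 6 without those labelled WT replicates 1, 2 and 3. Slc44a2, Slc15a4, Slc12a7 and Slc25a24 were called in each of these 6 fits.

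**Figure D1:**
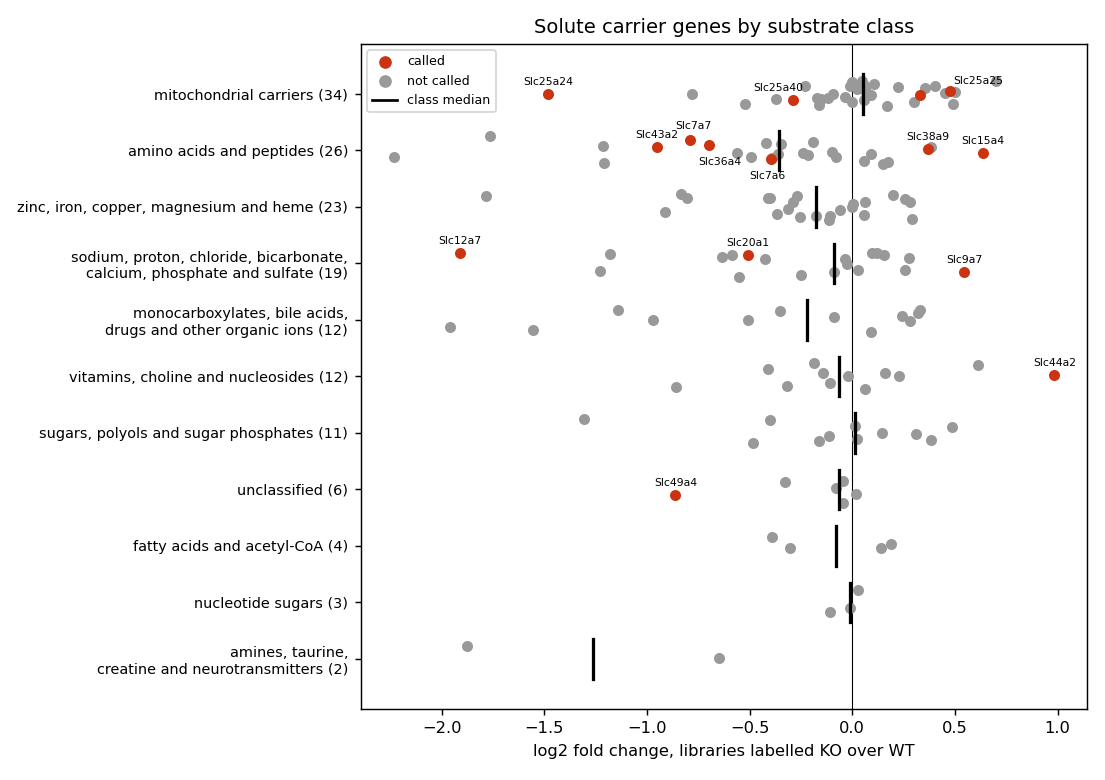
Log2 fold change between the libraries labelled KO and WT (horizontal axis) for the 152 members, 1 point each, by substrate class with the number of members in parentheses. Red points are called members, grey points are not, and black bars are class medians. The largest differences lie to the left, and Slc44a2 at 0.98 lies farthest to the right.

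Slc44a2 was the called member of smallest p and the largest rise. It encodes choline transporter-like protein 2, which carries a neutrophil antigen in humans, and lies on chromosome 9 at 21320719 to 21355028. It had 133.27, 129.64 and 120.59 TPM in the libraries labelled WT and 265.45, 254.86 and 229.35 TPM in those labelled KO. The groups were far apart, with every library labelled KO above every library labelled WT. The log2 fold change was 0.98 ± 0.08 (SE, adjusted p = 4.24e-04), or 1.98-fold, and lay between 0.95 and 1.02 when each library was left out. The summed pan-B markers rose over the same libraries, as given above, while the summed neutrophil markers were lower. Its near relative Slc44a1, the better known choline carrier, had 25.30, 18.22 and 19.62 against 20.42, 20.77 and 15.61 TPM and was not called.

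The rise of Slc44a2 was carried by transcript NM_001199186, which begins at 21320698 in GENCODE, within the sequence shown above for the upstream start. This transcript made up a mean of 91.7% of the level of the gene and had 119.99, 117.22 and 112.03 TPM in the libraries labelled WT and 245.09, 238.67 and 208.76 TPM in those labelled KO. Its log2 fold change was 0.99 ± 0.07 (SE, adjusted p = 0.0219 over all 31150 transcripts tested, 0.155 with the block). Transcript NM_152808, which begins at the downstream start at 21337828, was listed at 0 in 5 of the 6 libraries and at 0.17 TPM in the library labelled KO replicate 1. Transcript NM_001359227 had 11.84, 12.42 and 5.73 against 19.24, 15.83 and 20.59 TPM and was not called (adjusted p = 0.402). Among all 444 tested transcripts of the members, NM_001199186 was the only one called (0.225%), where 0.154% of all transcripts were called. It was not called in any fit that left out a library.

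**Figure D2:**
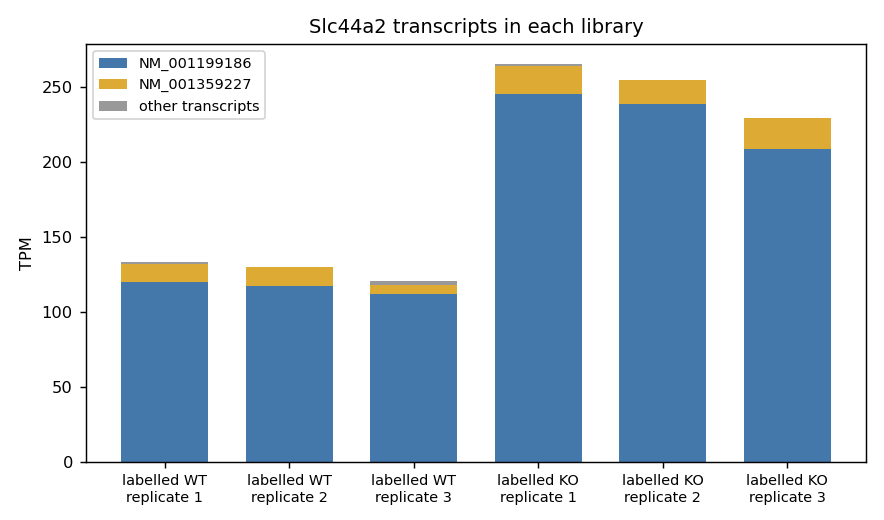
Level of Slc44a2 in TPM in each library, with the bar of each library split into transcript NM_001199186 (blue), NM_001359227 (yellow) and the remaining transcripts (grey). The blue part is 112.03 to 119.99 TPM in the libraries labelled WT and 208.76 to 245.09 TPM in those labelled KO.

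The other 11 carriers of vitamins, choline and nucleosides were not called. The nearest to Slc44a2 in level was Slc28a2, a sodium-coupled nucleoside carrier, with 101.27, 134.42 and 90.11 against 94.04, 111.87 and 87.73 TPM, groups that overlap. Slc29a1, the equilibrative nucleoside carrier ENT1, had 28.88, 19.93 and 44.32 against 19.36, 11.22 and 19.07 TPM and was not called without the block (log2 fold change -0.86 ± 0.35, adjusted p = 0.176, 0.00509 with the block and 0.0389 by DESeq2). The class median was -0.06.

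Carriers of amino acids and peptides held 6 of the 15 called members, 2 higher and 4 lower, among 26 members with a median of -0.35. That is 23.1% of the class, beside 9.37% of all genes tested. With the block, 3 of the 26 rose and 11 fell, where 20.7% of all genes were called. Both rises lay in carriers of lysosomes, and the falls lay in Slc43a2, Slc7a7, Slc36a4 and Slc7a6. Because the members were chosen with earlier results known, no test of the class was made.

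Slc15a4 encodes a lysosomal carrier of histidine and small peptides that B cells and plasmacytoid dendritic cells need for signals from nucleic acid receptors of the Toll-like family. It had 73.25, 78.61 and 71.80 TPM in the libraries labelled WT and 119.48, 107.31 and 103.62 TPM in those labelled KO, without overlap. It rose by 0.63 ± 0.08 on the log2 scale (SE, adjusted p = 0.00299). Glt1d1, which overlaps it, had a mean of 7.5 counts against 2669 for Slc15a4. Slc15a3, a lysosomal peptide carrier best known from macrophages, went the other way in level, with 74.04, 31.62 and 69.74 against 31.81, 18.54 and 24.39 TPM. The lowest library labelled WT lay just under the highest labelled KO, and its log2 fold change of -1.22 ± 0.39 was not called (adjusted p = 0.113, 6.31e-04 with the block). Slc38a9, the lysosomal arginine sensor upstream of mTORC1, rose slightly from 19.13, 18.93 and 19.97 to 23.92, 28 and 20.75 TPM (0.37 ± 0.09, adjusted p = 0.042), a call lost without any library other than WT replicate 2 (adjusted p up to 0.179). Slc66a1, which exports cationic amino acids from lysosomes, had 26.78, 19.58 and 27.06 against 27.26, 25.02 and 31.73 TPM and was not called without the block (0.38 ± 0.11, adjusted p = 0.0685, 0.0302 with the block and 0.0456 by DESeq2). Slc36a4, a high-affinity carrier of proline and tryptophan, fell from 9.34, 9.71 and 12.51 to 7.10, 5.61 and 6.45 TPM (-0.70 ± 0.17, adjusted p = 0.0392). That call ended without any of the libraries labelled KO and without WT replicate 3 (adjusted p up to 0.149).

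Slc43a2, a facilitative carrier of leucine and other large neutral amino acids, showed the largest called fall of the class. It had 90.80, 77.06 and 108.30 TPM in the libraries labelled WT and 51.61, 45.65 and 42.28 TPM in those labelled KO. The groups did not overlap, and the log2 fold change was -0.95 ± 0.15 (SE, adjusted p = 0.0103), with an adjusted p of 0.0656 without the library labelled KO replicate 2.

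The 6 members that form heteromeric carriers (Slc3a2 and its light chains Slc7a5, Slc7a6, Slc7a7, Slc7a8 and Slc7a11) were all lower in the libraries labelled KO without overlap between groups. For comparison, 33.4% of all genes had groups without overlap in either direction, and 1949 of the 12234 tested were lower. Of the 6, 2 were called without the block and all 6 with it, where 9.37% and 20.7% of all genes were called. Slc3a2, the heavy chain known as CD98, had 197.89, 152.02 and 206.71 against 147.12, 121.92 and 126.27 TPM (-0.49 ± 0.14, adjusted p = 0.0608, 0.00549 with the block). Slc7a5, its partner for leucine and other large neutral amino acids, had 59.72, 66.43 and 55.85 against 52.19, 48.93 and 40.38 TPM (-0.35 ± 0.10, adjusted p = 0.0619, 0.0183 with the block). In both genes the lowest library labelled WT lay close above the highest labelled KO. The light chains for cationic amino acids were the called ones. Slc7a7, mutated in human lysinuric protein intolerance, fell from 33.14, 26.34 and 39.55 to 22.66, 16.69 and 19.38 TPM (-0.79 ± 0.19, adjusted p = 0.042). Slc7a6 fell from 24.83, 24.73 and 24.88 to 17.85, 19.31 and 18.38 TPM (-0.40 ± 0.09, adjusted p = 0.0357). Neither call held without a library other than WT replicate 2 (adjusted p up to 0.148 and 0.140). Slc7a7 overlaps Oxa1l by 228 bases, and Oxa1l had a mean of 1160 counts against 437 for Slc7a7. Since the protocol names no strand-marking step, reads there cannot be told apart.

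The remaining light chains had larger but more variable differences. Slc7a8, a further carrier of neutral amino acids, had 35.98, 16.77 and 46.53 TPM in the libraries labelled WT and 13.19, 6.50 and 8.30 TPM in those labelled KO (-1.77 ± 0.46, adjusted p = 0.0754, 0.00407 with the block). Slc7a11, which takes up cystine in exchange for glutamate and feeds glutathione synthesis, had 30.93, 8.02 and 16.52 against 4.67, 3.20 and 3.80 TPM. Replicate 1 was highest and replicate 2 lowest in both groups, and its log2 fold change of -2.23 ± 0.54, the largest among the members, was not called (adjusted p = 0.0653, 0.0165 with the block). Slc16a10, a carrier of aromatic amino acids outside this family, had 21.12, 10.67 and 22.86 against 9.11, 7.11 and 8.12 TPM (-1.21 ± 0.30, adjusted p = 0.0539, 0.00342 with the block). Slc15a2, a peptide carrier, had the widest error of the class, with 30.62, 5.93 and 15.79 against 16.10, 1.89 and 24.86 TPM.

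Carriers known as targets of ATF4, the transcription factor of the amino acid response, held no call among the members: 0 of 8 passed without the block (5 had an unadjusted p under 0.05), and 3 fell with it (Slc3a2, Slc7a5 and Slc7a11), as 3 did by DESeq2. Slc38a2 had 280.94, 314.40 and 282.62 against 240.36, 224.01 and 266.94 TPM (-0.24 ± 0.10, adjusted p = 0.167). Slc1a4, a carrier of serine and alanine with TGATGNAA at its start, had 10.64, 11.97 and 10.04 against 9.52, 7.11 and 7.42 TPM (-0.42 ± 0.15, adjusted p = 0.111). Slc1a5 had 164.57, 219.55 and 182.93 against 210.22, 210.00 and 200.64 TPM, with overlapping groups (0.15 ± 0.10, adjusted p = 0.383). Of 15 other genes of the ATF4 pathway, 5 fell and 1 rose (40% called, beside 9.37% of all genes). With the block 6 fell and 1 rose, where 20.7% of all genes were called. Trib3, an inhibitor induced by ATF4, fell by 1.04 on the log2 scale (adjusted p = 0.00499), and the mitochondrial folate enzymes Shmt2 and Mthfd2 by 0.52 and 0.55 (adjusted p = 0.00901 and 0.00962). Chac1, which degrades glutathione, and the stress factor Atf3 also fell, and Ddit4, an inhibitor of mTORC1, rose by 1.3 (adjusted p = 4.32e-04). Atf4 itself had 397.42, 488.58 and 434.75 against 368.10, 384.43 and 382.71 TPM and was not called (adjusted p = 0.191).

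Among the 19 carriers of sodium, protons, chloride, bicarbonate, calcium, phosphate and sulfate, 1 rose and 2 fell (15.8% called, beside 9.37% of all genes). With the block 1 rose and 8 fell, where 20.7% of all genes were called. Slc12a7, the potassium-chloride cotransporter KCC4, lies on chromosome 13 at 73733052 to 73816754 and was the called member with the largest fall. It had 62.99, 37.71 and 50.25 TPM in the libraries labelled WT and 15.60, 11.75 and 12.62 TPM in those labelled KO. Every library labelled WT was more than 2-fold above every library labelled KO. Its log2 fold change was -1.91 ± 0.21 (SE, adjusted p = 0.00449), or 3.77-fold lower, and lay between -2.08 and -1.72 when each library was left out.

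No transcript of Slc12a7 was called. NM_011390, which begins at 73763697 just after the sequence shown above, had 15.49, 10.71 and 23.49 against 7.83, 7.54 and 7.63 TPM (adjusted p = 0.263). XM_006517171 had 32.91, 15.62 and 15.81 against 2.53, 1.83 and 0.99 TPM (log2 fold change -3.59 ± 0.48, adjusted p = 0.0799). Its share of the level of the gene was 31.5 to 52.3% in the libraries labelled WT and 7.85 to 16.2% in those labelled KO. The start of XM_006517171 was not located, so the sequence shown above may not lie before it. The share of a transcript is an estimate from reads that transcripts of a gene largely have in common.

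Slc20a1, a sodium-phosphate cotransporter that some retroviruses use to enter cells, fell from 93.36, 86.10 and 72.55 to 60.21, 61.90 and 56.58 TPM (-0.51 ± 0.10, adjusted p = 0.022, up to 0.0793 without a library labelled KO). Slc9a7, a sodium-proton exchanger of the trans-Golgi network, rose from 48.09, 69.14 and 47.09 to 79.86, 86.04 and 73.63 TPM (0.54 ± 0.13, adjusted p = 0.0411). That call was lost without any library other than WT replicate 2 (adjusted p up to 0.169). Chst7, which overlaps it, had a mean of 7.5 counts against 4847 for Slc9a7. Its endosomal relative Slc9a9 had 12.70, 6.10 and 16.90 against 6.39, 4.30 and 4.92 TPM (-1.18 ± 0.39, adjusted p = 0.104, 0.0135 with the block). The sodium-calcium exchanger Slc8a1 had 9.88, 8.02 and 12.11 against 5.47, 2.54 and 4.64 TPM (-1.23 ± 0.34, adjusted p = 0.0769, 5.58e-04 with the block). The sodium-bicarbonate cotransporter Slc4a7 had 38.08, 58.67 and 43.74 against 29.24, 35.78 and 27.54 TPM, and unlike the previous 2 it was highest in replicate 2 of both groups (-0.59 ± 0.16, adjusted p = 0.0624, 0.00208 with the block).

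**Figure D3:**
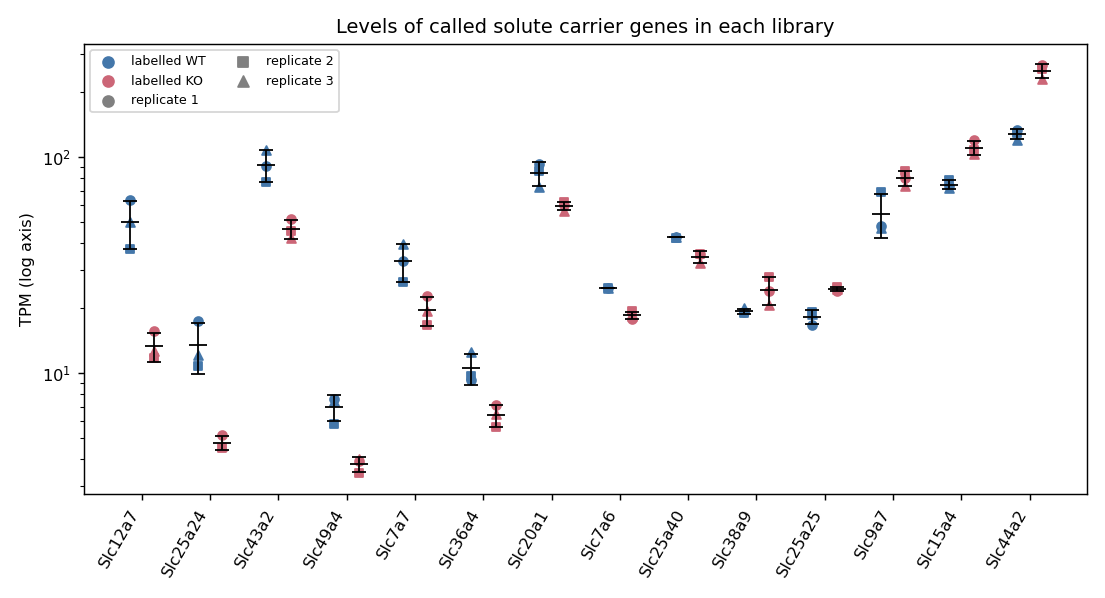
TPM in each library (log axis) of 14 of the 15 called members, ordered from the largest fall to the largest rise. Blue points are libraries labelled WT and red points those labelled KO, the marker shape gives the replicate number, and black bars are the mean ± SD of 3 libraries. Slc12a7 goes from 37.71 to 62.99 TPM down to 11.75 to 15.60 TPM, and Slc44a2 from 120.59 to 133.27 TPM up to 229.35 to 265.45 TPM.

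The 34 mitochondrial carriers were the largest class, with a median of 0.05, and 29 of them had a log2 fold change of less than 0.5 in size. Of the 34, 4 were called (11.8%, beside 9.37% of all genes), 2 in each direction. Slc25a24 and Slc25a25 both encode calcium-regulated carriers that exchange ATP-magnesium for phosphate, and they moved in opposite directions. Slc25a24 had 17.48, 10.83 and 12.12 TPM in the libraries labelled WT and 5.20, 4.53 and 4.58 TPM in those labelled KO, a log2 fold change of -1.48 ± 0.20 (adjusted p = 0.00525). Slc25a25 had 16.64, 19.14 and 18.78 against 23.90, 24.97 and 24.48 TPM, a rise of 0.47 ± 0.10 (adjusted p = 0.0316). Neither gene had overlapping groups. The fall of Slc25a24 was called without each library in turn, and the rise of Slc25a25 was not called without any library other than WT replicate 2 (adjusted p up to 0.125). Slc25a25 overlaps Naif1 by 1014 bases, and Naif1 had a mean of 122 counts against 599 for Slc25a25. Slc25a23, a further carrier of this kind, had a mean of 10.5 TPM and was not called.

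A smaller difference was called in a gene with narrow spreads. Slc25a40, a carrier of glutathione, fell from 42.83, 42.44 and 42.70 to 35.79, 35.68 and 32.19 TPM (-0.29 ± 0.07, adjusted p = 0.0471). This call held without WT replicate 2 and in no other fit that left out a library (adjusted p up to 0.164). Slc25a33, which takes pyrimidine nucleotides into mitochondria, had 17.41, 20.21 and 20.80 against 10.19, 8.45 and 14.37 TPM (-0.78 ± 0.22, adjusted p = 0.0615, 0.0182 with the block). Slc25a27 had 6.15, 7.17 and 6.02 against 3.82, 4.38 and 2.78 TPM (-0.52 ± 0.14, adjusted p = 0.051, 0.0291 with the block). Neither of the adenine nucleotide translocases with high levels was called: Slc25a5 had 387.51, 385.34 and 446.89 against 388.93, 393.31 and 472.97 TPM, and its paralog Slc25a4 had 66.93, 79.48 and 84.98 against 88.05, 86.06 and 146.61 TPM (0.50 ± 0.25, adjusted p = 0.252).

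None of the 23 carriers of zinc, iron, copper, magnesium and heme was called without the block (10 had an unadjusted p under 0.05), and 6 fell with it, as 6 did by DESeq2. The largest difference lay in Slc11a1, the phagosomal carrier of iron and manganese that protects macrophages against intracellular bacteria. It had 178.96, 73.46 and 193.90 TPM in the libraries labelled WT and 57.92, 24.12 and 43.42 TPM in those labelled KO. Replicate 2 was the lowest library of each group, and the groups did not overlap. The log2 fold change was -1.78 ± 0.51 (adjusted p = 0.0978, 3.31e-05 with the block). Slc48a1, which moves heme out of the lysosome after red cells are taken up, had 187.31, 119.48 and 234.49 against 109.76, 85.77 and 104.40 TPM (-0.84 ± 0.27, adjusted p = 0.112, 0.003 with the block).

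Zinc and copper carriers showed smaller differences. Slc39a7, which releases zinc from the endoplasmic reticulum and is needed for B cell development, had 117.78, 107.78 and 114.01 against 97.29, 95.20 and 87.52 TPM (-0.25 ± 0.08, adjusted p = 0.0734, 0.0457 with the block). Slc30a5, which loads zinc into the secretory pathway, had 83.14, 123.10 and 105.28 against 100.63, 109.86 and 97.24 TPM, with overlapping groups. The copper carrier Slc31a1 had 23.04, 24.30 and 25.21 against 20.23, 17.02 and 17.09 TPM (-0.40 ± 0.11, adjusted p = 0.0563, 0.0358 with the block). Slc31a2, which acts on copper in lysosomes and endosomes, had 23.11, 16.83 and 13.84 against 8.71, 9.78 and 11.76 TPM (-0.80 ± 0.23, adjusted p = 0.0665, 0.0492 with the block).

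None of the 11 carriers of sugars, polyols and sugar phosphates was called (3 had an unadjusted p under 0.05), and 2 fell with the block and 1 by DESeq2. Slc50a1, the sugar carrier of highest level, had 100.27, 122.69 and 100.87 against 142.77, 137.76 and 117.50 TPM (0.31 ± 0.11, adjusted p = 0.114). The glucose carrier Slc2a3 had 44.37, 27.75 and 22.51 against 25.81, 34.30 and 26.01 TPM, and its groups overlapped. Slc37a2, a sugar phosphate exchanger of the endoplasmic reticulum best known from macrophages, had 64.51, 46.16 and 60.30 against 44.47, 41.49 and 35.38 TPM (-0.48 ± 0.14, adjusted p = 0.0658, 0.0188 with the block).

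None of the 12 carriers of monocarboxylates, bile acids, drugs and other organic ions was called (3 had an unadjusted p under 0.05), and with the block 1 rose and 4 fell, with 1 higher and 3 lower by DESeq2. Slc16a3, the lactate exporter MCT4 of glycolytic cells, had 28.35, 10.27 and 11.22 TPM in the libraries labelled WT and 6.30, 2.98 and 3.31 TPM in those labelled KO (-1.96 ± 0.52, adjusted p = 0.068, 2.02e-04 with the block). Slc16a3 overlaps Csnk1d by 1292 bases, and Csnk1d had a mean of 3066 counts against 209 for Slc16a3. Slc22a4, which takes up ergothioneine, had 6.71, 3.78 and 7.52 against 2.32, 1.43 and 2.13 TPM (-1.55 ± 0.42, adjusted p = 0.0537, 0.00579 with the block). Slc16a6, a carrier of ketone bodies in zebrafish, had 34, 35.35 and 35.99 against 42.85, 46.73 and 37.64 TPM (0.28 ± 0.07, adjusted p = 0.0522, 0.0359 with the block). Slc16a6 and Slc66a1 were the members that the block added to the rises, and DESeq2 also called both (adjusted p = 0.0247 and 0.0456).

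The small classes held 1 call. Slc49a4, a protein of the lysosomal membrane, fell from 7.62, 5.84 and 7.44 to 3.93, 3.44 and 3.99 TPM (-0.86 ± 0.17, adjusted p = 0.022), and this call ended without the libraries labelled KO replicates 1 and 2 or WT replicates 1 and 3 (adjusted p up to 0.101). The carriers of taurine and creatine did not pass the test without the block, fell with it and by DESeq2, and had groups without overlap. Slc6a6, for taurine, had 128.84, 83.04 and 127.99 against 74.29, 64.46 and 75.95 TPM (-0.65 ± 0.20, adjusted p = 0.0836, 0.00197 with the block). Slc6a8, for creatine, had 12.03, 3.37 and 6.46 against 1.99, 1.44 and 2.42 TPM (-1.88 ± 0.49, adjusted p = 0.0593, 0.00407 with the block). The 4 carriers of fatty acids and acetyl-CoA and the 3 of nucleotide sugars held no call with or without the block and none by DESeq2, and none had an unadjusted p under 0.05.

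**Figure D4:**
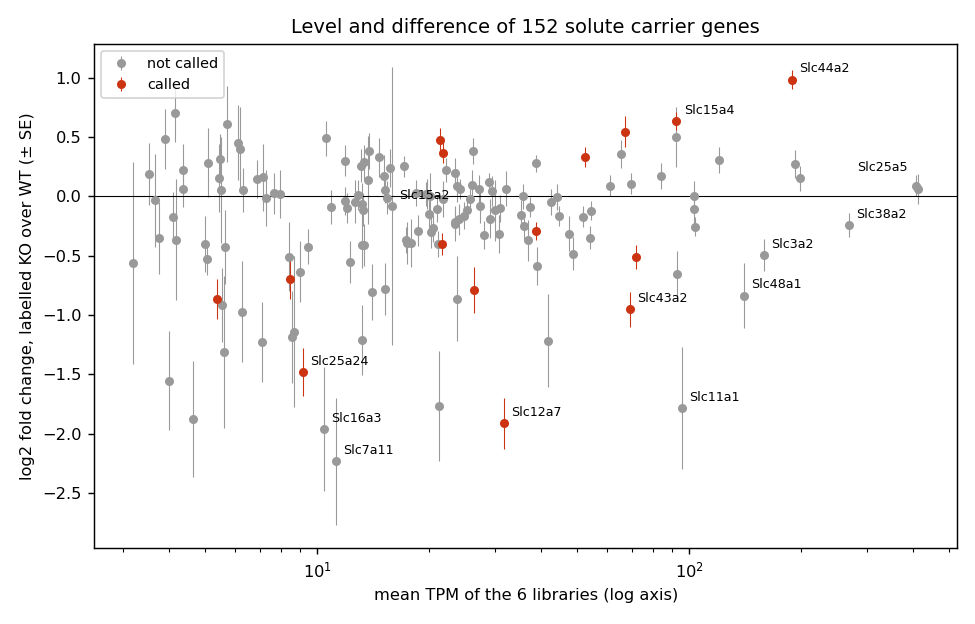
Log2 fold change with its SE against the mean TPM of the 6 libraries (log axis) for the 152 members, with called members in red. The not called members with the largest differences, such as Slc7a11 at -2.23 and Slc11a1 at -1.78, have wider errors than the called Slc12a7 at -1.91, whose SE is 0.21.

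All 14 members that differed by at least 2-fold were lower in the libraries labelled KO, and 2 of them, Slc12a7 and Slc25a24, were called. Genes with a difference of this size were not counted over all genes tested, so whether the direction is particular to carriers was not tested. In each of the 14, replicate 2 was the lowest library of both groups. That order held in 44 of the 152 members (28.9%) and in 18.6% of all genes tested, whatever their fold change. The share among other genes lower by 2-fold was not counted. Of the 33 members called with the block and not without it, 24 had that order. It also held in 10 of the 15 macrophage and monocyte markers and in none of the 14 neutrophil markers. A list drawn up by hand of carriers found in myeloid cells held 7 members: Slc2a6, Slc7a7, Slc7a11, Slc8a1, Slc11a1, Slc15a3 and Slc16a3. They are not all specific to myeloid cells (Slc16a3 was described above for glycolytic cells), and Slc37a2 was not on the list. The 7 summed to 383, 185 and 367 TPM in the libraries labelled WT and 152, 92.3 and 121 TPM in those labelled KO. In both groups replicate 2 was lowest for this sum, as for the summed macrophage markers, and for 6 of the 7 carriers. The exception was Slc2a6, with 27.95, 27.53 and 23.54 against 23.43, 24.23 and 22.09 TPM (log2 fold change -0.16, not called). Of these 7, 1 (Slc7a7) fell without the block and 6 with it, where 9.37% and 20.7% of all genes were called. The median log2 fold change of the 7 was -1.23. The 4 members of a like list for erythroid cells summed to 48.7, 55.5 and 61.5 against 53.6, 57.8 and 51.5 TPM. None of the 4 was called without the block (1 had an unadjusted p under 0.05, and 1 was called by DESeq2).

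**Figure D5:**
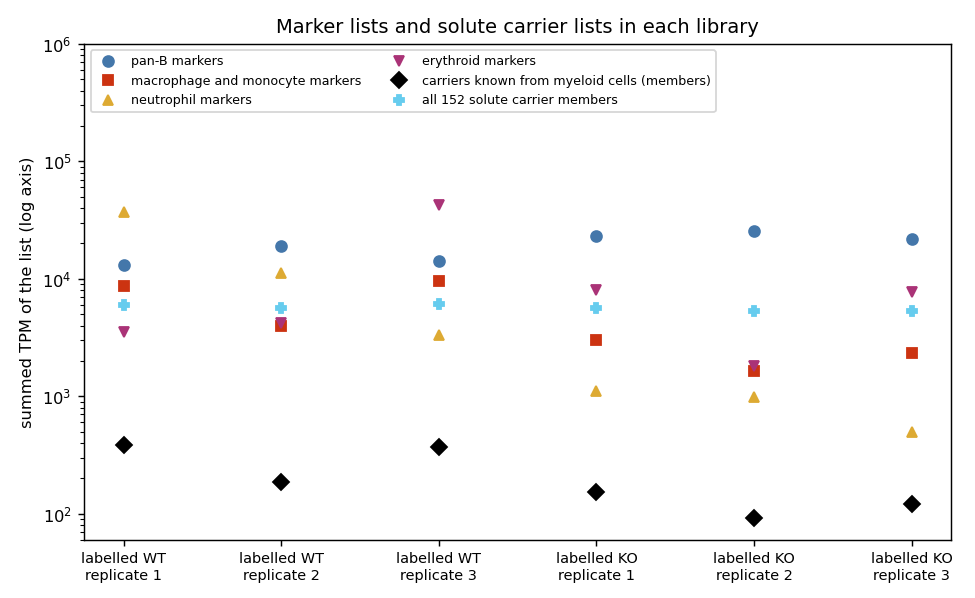
Summed TPM (log axis) of marker lists and of carrier lists in each library, 1 symbol per list. The carriers known from myeloid cells (black diamonds) lie at 185 to 383 TPM in the libraries labelled WT and 92.3 to 152 TPM in those labelled KO, and are lowest in replicate 2 of each group, as are the macrophage markers (red squares).

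Carriers and partners outside the rule are given as counts, beside 9.37% of all genes called without the block and 20.7% with it. Of 24 tested carriers in families with other letters, 1 rose and 2 fell: Slc35c1, the GDP-fucose carrier of the Golgi, rose from 38.64, 35.69 and 34.22 to 50.46, 54.01 and 44.69 TPM (0.45 ± 0.09, adjusted p = 0.025), while Slc35f6 and Slco3a1 fell. With the block, 1 of the 24 rose and 6 fell. Of 33 ABC transporters, 2 rose, Abca2 among them, and 5 fell, among them the sterol exporter Abcg1 (-1.47 ± 0.21, adjusted p = 0.00781). With the block, 2 of the 33 rose and 10 fell. Of 15 Mfsd genes, Mfsd6 and Mfsd11 fell and none rose, and with the block 4 fell. Of 13 partners and related carriers, Spns2, which exports sphingosine 1-phosphate, rose from 13.38, 22.53 and 21.32 to 39.99, 45.11 and 33.13 TPM (1.03 ± 0.20, adjusted p = 0.0248), and Emb, a chaperone of monocarboxylate carriers, fell from 110.74, 52.14 and 68.65 to 32.99, 21.66 and 17.57 TPM (-1.67 ± 0.36, adjusted p = 0.0495). With the block, 1 of the 13 rose and 3 fell.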

How the data were processed

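RNA sequencing of B lymphocytes enriched from mouse spleen gave 6 libraries, 3 labelled GPR40-WT and 3 labelled GPR40-KO, with groups and replicate numbers taken from the titles. The authors deposited estimated counts per gene and per transcript, not scaled to depth per the file headers, and 6.77% of the gene values and 82.5% of the transcript values above 0 were not whole. They also deposited TPM, scaled to length and depth, and FPKM, which was not used, per the file headers. A further 14 columns of values per table (normalised counts and group averages) were not used. The build was mm10, and RSEM 1.3.1, HISAT2 2.0.4 and Bowtie2 2.2.5 were used in roles not given in the sources used here, per the submitters' processing notes. The labels' protocols name no strand-marking step.

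Estimated counts were rounded. Genes were filtered with filterByExpr by group, scaled with TMM factors and tested with the quasi-likelihood F-test of edgeR 4.0.16 in R 4.3.3 on the label alone, with robust dispersion and Benjamini-Hochberg adjustment over 12234 genes or 31150 transcripts, at a threshold of 0.05. Unless another tool is named, adjusted p-values are those of this test. Log2 fold changes are from these counts, libraries labelled KO over WT, while levels are TPM. Depth was 14907080 to 15461425 counts per library, and chi-square per degree of freedom between replicates was 11.8 to 45.8, so no library was a copy of another. Alternatives were DESeq2 1.42.0, limma 3.58.1 on log2(TPM + 1), upper quartile factors, library size alone, no filter, limits of 1 and 10 on the mean TPM, a replicate block, each library left out in turn, and the libraries labelled WT replicate 1 and KO replicate 3 left out together.

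Across genes, same-numbered libraries of the 2 groups deviated from their group means together, with r = 0.133, 0.362 and 0.170. All 3 lie above 0.1, while libraries of unlike number had r from -0.218 to 0.037. The main test still used the label alone, and every call is from it unless the block is named. Values with the block are given beside it where they change a call. The labels themselves state no pairing.

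The members, substrate classes and lists were chosen with earlier results of these data known. Substrate classes follow textbook knowledge of each family. Named genes are the 3 of highest level and up to 4 called members in each direction per class, the largest called changes, those at the limit, and the members of the heteromeric, ATF4, myeloid and erythroid lists. Others, such as Slc16a10, Slc9a9, Slc29a1, Slc25a33, Slc25a27, Slc25a23, Slc31a1, Slc31a2, Slc4a7, Slc44a1, Slc66a1 and Slc15a2, and the genes outside the rule for members, were named after their values were seen. A few called or highly expressed genes are not reported here.

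Promoter sequences are from RefSeq, where 114 of the 152 members matched, and gene coordinates are of GRCm38, the same build as mm10. Tested on simulated counts of 12050 genes, edgeR found 15.4% of those changed by 1.5-fold, 55.4% by 2-fold and 80% by 4-fold, with 12 false calls. With the block, 13.8%, 60% and 80% were found, with 22 false calls. DESeq2, on 12234 genes, found 29.9%, 70.1% and 80.3%, with 34 false calls. Calls by these 2 fits thus held more false ones in the simulation, which had no effect of the replicate number. Among 27178 simulated transcripts, edgeR found 0% of those changed by 2-fold and 7.27% by 4-fold, with 1 false call.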

Additional observations from a re-analysis of the deposited data

How the results depend on the processing

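The median log2 fold change of the members stayed between -0.12 and -0.04 under every alternative run. The count of called members, 15 as reported, was 48 with the replicate block (40 lower) and 43 by DESeq2 (35 lower), with 8 higher in both. With WT replicate 1 and KO replicate 3 left out together it was 5 (2 higher and 3 lower). When each library was left out in turn, it ran from 4 to 38, with 2 to 10 higher and 2 to 28 lower, and the count of 38 came without the library labelled WT replicate 2. Library size alone gave 14 lower, and limma on log2(TPM + 1) gave 2 higher. The remaining alternatives stayed within 1.5 times of the reported counts. The block added 33 members, 31 lower and 2 higher, and changed no other member call. The count of called transcripts, 1 as reported, was 46 by DESeq2, 2 with no filter, 0 with the replicate block and 0 in each fit that left out a library. In simulated transcripts DESeq2 made 193 false calls. The cause of these shifts was not tested. Of the 43 members whose fold change is given, none changed direction. In simulated data of this depth and number of libraries, 15.4% of genes changed by 1.5-fold were recovered and 0% of such transcripts, so calls of small changes are incomplete.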
